A study of Homo sapiens with 12 samples.

Results

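The genes described here belong to 5 families of developmental transcription factors. They are every gene on the array whose symbol starts with HOXA, HOXB, HOXC, HOXD, SOX, GATA or PAX and a digit, or with FOX, a letter and a digit, and the choice of families was made with earlier results of these data known. The rule found 183 array features, each a spot with its own number, for 110 genes, among 43376 features and 18334 singly named genes in all. Of these, 34 features of 29 genes carried a value, and the other 149 features were blank on every array.

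HOX proteins bind DNA through a homeodomain and give cells their position along the body axis, and they lie in clusters whose order mirrors where each gene is used. SOX proteins bend DNA through an HMG box and keep progenitor cells in their state. FOX proteins share the forkhead domain, and some of them (FOXA) open closed chromatin, while the FOXO group answers to insulin and AKT signalling. GATA proteins carry zinc fingers, and PAX proteins the paired domain. In the pancreas FOXA1, FOXA2, GATA4, GATA6, SOX9, PAX4 and PAX6 take part in forming the organ or its endocrine cells.

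The samples were MIA PaCa-2 cells, an established human pancreatic cancer line, exposed to LE, a methanol-dissolved extract of Achyranthes aspera leaves, at 34 ug/mL. The control cells received 2% methanol. RNA of treated and control cells was hybridised together on each of 12 2-colour whole genome arrays, 6 after 24 h, 4 after 48 h and 2 after 72 h, so every value is a log2 ratio within an array. LE carried the dye Cy5 on 6 arrays (24 h replicates 2, 3 and 5, 48 h replicates 2 and 3, 72 h replicate 2) and the dye Cy3 on the other 6. The methods state that control and treated groups were made in duplicate, with biological replicates labelled by dye swap, and do not say which arrays share a culture. With 6 arrays at 24 h and 4 at 48 h, some arrays therefore share one. Every fit below counts each array as a replicate, so its errors are in part technical and its p-values can be too small. The markers of the labelled cell type were mixed. Of 7 epithelial genes KRT8, KRT18, KRT19 and MUC1 had a value, while KRT7, EPCAM and CDH1, the last at all of its 10 features, were blank. Of 4 mesenchymal genes VIM had a value at both features and FN1 at 1 of 14, and CDH2 and ZEB1 were blank. The collagen gene COL1A1, a fibroblast marker, had values at 10 of 10 features, and the other 5 endothelial and fibroblast genes were blank. Among these was VWF, blank at all of its 11 features, although the study lists it among the genes lowered by LE. None of 6 acinar and endocrine genes and none of 4 leukocyte genes had a value.

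A pair of limits touches every ratio below and stands before the results. The first is direction. A ratio is read as LE over control as deposited, which is likely but not settled: the sample titles name treated against untreated. The study lists 941 values for 72 h. Of these, 426 lay within 2e-05 on the log2 scale of some feature's mean over the 72 h columns as deposited. With the signs turned by the dye labels 84 did. These matches were to any feature and not by gene. They show at most that the study averaged the columns unturned, not that each column holds LE over control. Over all features, arrays of the same dye orientation correlated at a median r of 0.226 and arrays of opposite orientation at -0.034. The second is the link between a ratio and its gene name. Blank status followed the names: of 157 genes spotted 10 times under 1 accession, 115 had values at all 10 features, 41 at none and 1 at some. The ratios did not: the SD among the 10 ratios of such a gene was 0.86 to 0.953 of the SD among all features, and across 1556 pairs of features with 1 symbol and 1 accession r lay between -0.05 and 0.027 on each array. The counts of genes with a value therefore come first, and the ratios are given as listed at each feature. The counts have a limit too. FOXL1 and VWF, which the study lists as lowered by LE, were blank under their names here. The other genes of that list were not checked, so the link of blanks to names is not settled.

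Few of the developmental factors had a value. A value needed a spot that passed the study's quality criteria on all arrays, so a blank does not show that a gene was silent. Besides image measures, the criteria ask that a feature change in opposite directions at dye swap. In the deposited ratios 46.1% of all features had 1 sign in the means of both dye orientations. How that criterion was applied was not tested. Of the 183 features 18.6% had one, against 42.9% of all 31332 features with a single symbol, and of the 110 genes 26.4%, against 48.2% of all named genes. FOX genes fared best, with 17 of 41 genes and 21 of 77 features. HOX genes had values for 5 of 31, SOX genes for 4 of 21, PAX genes for 2 of 10 and GATA genes for 1 of 7. The 12 HOXC features and the 9 HOXD features were all blank.

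**Figure D1:**
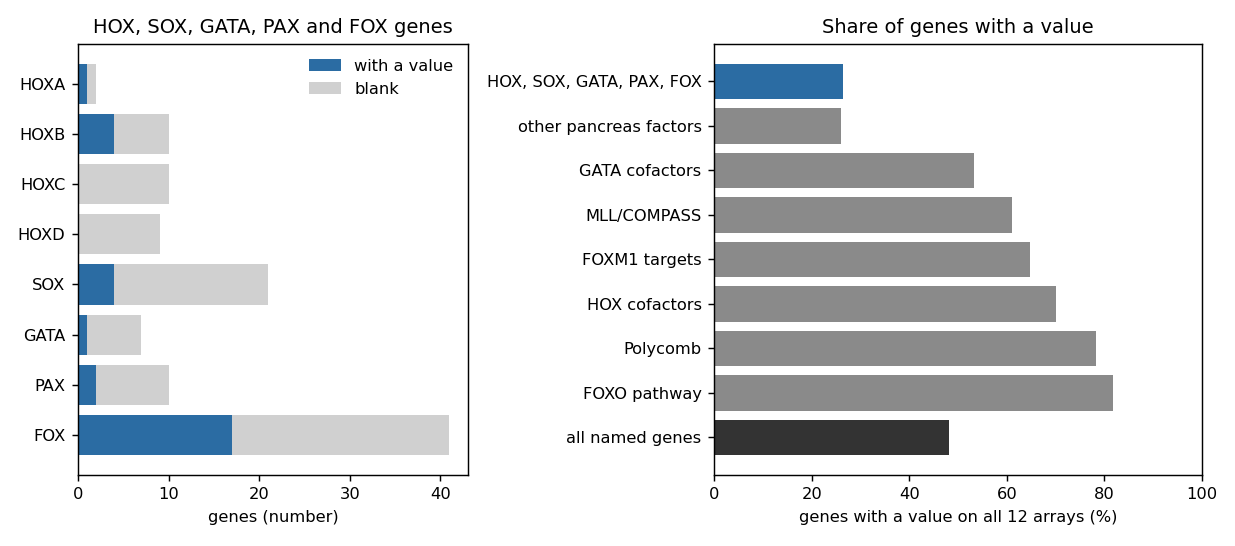
Left, number of genes with a value (blue) and blank (grey) in each family. Right, percent of genes with a value on all 12 arrays in the developmental families, in 7 lists of related genes and over all named genes; the developmental families reached 26.4% and all named genes 48.2%.

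The gap was present among genes with few and with several spots. Among genes with 1 feature, 7 of 60 developmental genes (11.7%) and 36.8% of all genes had a value. Among genes with several features, 44% of the developmental genes and 63.7% of all genes had at least 1. Of the 22 developmental genes with several features and any value, 18 also had a blank feature (81.8%), against 66.2% of all such genes, so most of them were read from only some of their spots.

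The blank genes included factors known for building the pancreas. FOXA1, a pioneer factor of endoderm, was blank at all of its 11 features, and its relatives FOXA2 and FOXA3 were blank as well. GATA4 and GATA6, which direct the pancreatic bud, SOX9, which marks pancreatic progenitors and ducts, and SOX17, which marks endoderm, were blank. So were PAX4 and PAX6 of the endocrine lineage and PAX8 of thyroid and kidney. The remaining blank GATA entries were GATA1, GATA3, GATA5 and the antisense RNA GATA2-AS1, and the remaining blank PAX genes were PAX1, PAX2, PAX3, PAX7 and PAX9.

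Among pancreas factors outside the families the share with a value was close to that of the families: 6 of 23 (26.1%), namely RFX3, HES1, RBPJ, BHLHA15, KLF5 and TCF7L2. Proteins that work with or upstream of the developmental factors had values more often. The shares were 7 of 10 HOX cofactors, 18 of 23 Polycomb genes, which silence HOX clusters, and 11 of 18 MLL/COMPASS genes, which keep them active. They were 8 of 15 GATA cofactors, 18 of 22 FOXO regulators and targets and 11 of 17 FOXM1 targets.

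Within the FOX family the genes with a value were FOXC2, FOXD1, FOXD2, FOXD3, FOXD4, FOXJ2, FOXJ3, FOXK1, FOXK2, FOXM1, FOXN1, FOXN3, FOXO1, FOXO3, FOXP1, FOXQ1 and the antisense RNA FOXN3-AS1. FOXL1, a factor of the gut mesenchyme, was blank, although the study lists it among the genes lowered by LE. That listing could not be compared with a ratio here. Also blank were FOXB1, FOXD2-AS1, FOXE1, FOXE3, FOXF1, FOXF2, FOXH1, FOXI1, FOXI3, FOXJ1, FOXL2, FOXN2, FOXN3-AS2, FOXN4, FOXO4, FOXP2, FOXP3, FOXP4, FOXR1 and FOXS1. The SOX genes with a value were SOX4, SOX8, SOX12 and SOX18, while SOX1, SOX1-OT, SOX2, SOX2-OT, SOX3, SOX5, SOX6, SOX7, SOX10, SOX11, SOX13, SOX14, SOX15, SOX21 and SOX30 were blank.

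In the HOXB cluster, 3 of the 4 genes with a value were neighbours. Of the 10 genes in genomic order, HOXB2, HOXB3 and HOXB4, which lie side by side, had values, as did HOXB7. HOXB2 had a value at both of its features, HOXB3 at 1 of 3, and HOXB4 and HOXB7 at 1 of 2 each. Whether such a run of neighbours exceeds chance was not tested. HOXB1, HOXB5, HOXB6, HOXB8, HOXB9 and HOXB13 were blank. Of the other clusters, HOXA2 had a value and HOXA11-AS, the only other HOXA entry under the rule, was blank. Blank HOXC entries were HOXC4, HOXC5, HOXC6, HOXC8, HOXC9, HOXC10, HOXC11, HOXC12, HOXC13 and HOXC13-AS, and blank HOXD genes were HOXD1, HOXD3, HOXD4, HOXD8, HOXD9, HOXD10, HOXD11, HOXD12 and HOXD13.

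No developmental factor with a value was called in any comparison of LE with control in the fits made here. The test was limma's moderated test over all 17134 features with a value, with calls at a Benjamini-Hochberg adjusted p of at most 0.01, and the mean below weights the 3 time points equally. None of the 34 features was called at 24, 48 or 72 h or in the mean, and none was called at an adjusted p of 0.05. Over all features 0% were called at each time point and 0.0525% (9 features) in the mean. The study's own limma analysis, at a false discovery rate of 0.01, reports called genes at each time point. Its model was not rerun here, and the reason for the difference was not tested. The genes it lists as lowered include FOXL1, which had no value and was not tested here. At an unadjusted p under 0.05, the mean held 2 of the 34 features, against 15.9% of all features. The first time point held 1 member (5.78% of all features), the 48 h arrays held 5 (9.29%) and the 72 h arrays 1 (8.99%).

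**Figure D2:**
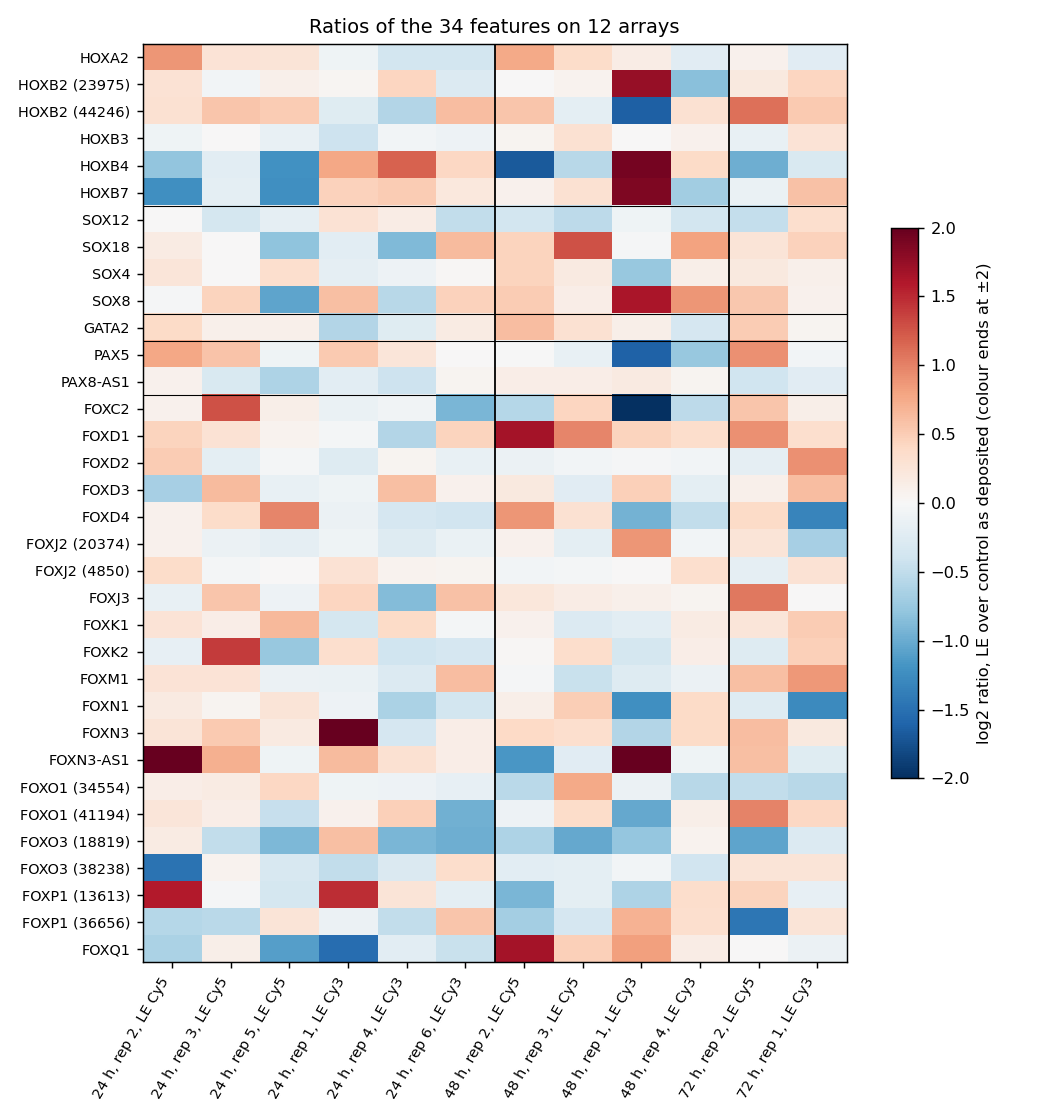
Log2 ratio (LE over control as deposited, red above 0 and blue below) of the 34 features, in rows by family, on the 12 arrays, in columns by time and dye of LE. Rows with a constant colour across all 12 columns are missing: no feature kept 1 sign on all arrays.

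The sizes of the mean were small as well. The median log2 ratio of the 34 features was 0.08 in the mean, against 0.03 over all features. It was 0.04 against 0.02 at 24 h, 0.03 against 0.00 at 48 h and 0.21 against 0.04 at 72 h. The median size of the mean, whatever its sign, was 0.158 for the developmental factors and 0.171 over all features. By time point the median size was 0.107 against 0.159 at 24 h and 0.18 against 0.216 at 48 h. At 72 h it was larger for the members, 0.345 against 0.286. No member passed 1 in size at any time point. Of all 17134 features 41 did at 24 h, 318 at 48 h and 944 at 72 h. The residual SD between arrays had a median of 0.542 for the members and 0.543 over all features, so that the typical mean was smaller than the spread of single arrays.

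In signs, 23 of 34 features had a mean above 0, against 54% of all features. With signs turned by the dye labels the count was 18 of 34, against 53.4% of all features. No member kept 1 sign on the 6 arrays of 24 h (2.81% of all features) or on all 12 arrays (0.414%). At 48 h 11 members kept 1 sign on the 4 arrays, 6 above 0 and 5 below (14% of all features). At 72 h 19 did so on the 2 arrays, 14 above and 5 below (54.1%). The 3 time point means had 1 sign in 11 members (40.8%), and the means of both dye orientations had 1 sign in 16 (46.1%).

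FOXD1, a forkhead factor of kidney stroma and retina, had the highest mean of the 34 in the ratios as deposited. With signs turned by the dye labels its mean was 0.30 (SE 0.21, adjusted p = 0.429), and FOXD4 had the highest. At 24 h its replicates 1 to 6 were listed at -0.04, 0.45, 0.29, -0.59, 0.07 and 0.45. At 48 h the 4 arrays gave 0.44, 1.66, 0.97 and 0.35, and at 72 h the 2 arrays gave 0.33 and 0.91. All 6 later arrays lay above 0, and the 24 h arrays lay on both sides. The mean log2 ratio was 0.53 (SE 0.16, a fold of 1.44), with an adjusted p of 0.108 in limma. At 48 h the log2 ratio was 0.85 (SE 0.25, adjusted p = 0.327). Arrays with LE in Cy5 averaged 0.83 and those with LE in Cy3 0.22. Leaving out 1 array at a time put the mean between 0.43 and 0.62, and its adjusted p between 0.0744 and 0.432.

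FOXO3, a forkhead factor that AKT keeps out of the nucleus and that drives stress and cell death genes, had the lowest mean as deposited at 1 of its features and not at the other. Turned by the dye labels, the mean of that feature was -0.21 (SE 0.23, adjusted p = 0.654), and HOXB4 had the lowest. Feature 18819 was listed at 0.60, 0.16, -0.49, -0.91, -0.90 and -0.97 at 24 h. It was listed at -0.77, -0.61, -1.03 and 0.07 at 48 h and at -0.27 and -1.05 at 72 h. It thus lay below 0 on 9 of 12 arrays, and the exceptions were 2 arrays of 24 h and 1 of 48 h. Its mean was -0.55 (SE 0.18, adjusted p = 0.137), with -0.76 for LE in Cy5 and -0.35 for LE in Cy3. The second FOXO3 feature, 38238, was listed at -0.50, -1.48, 0.07, -0.29, -0.32 and 0.35 at 24 h, at -0.05, -0.21, -0.19 and -0.39 at 48 h, and at 0.26 and 0.25 at 72 h. Its mean was -0.10 (SE 0.16, adjusted p = 0.813), and its 48 h and 72 h arrays lay on opposite sides of 0. Over the 12 arrays the 2 features had r = -0.57 and the same sign on 5.

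FOXQ1, a forkhead factor of epithelial and hair differentiation, had opposite values at the first time points in the ratios as deposited, and not with the ratios turned. It was listed at -1.52, -0.63, 0.11, -0.21, -1.10 and -0.45 at 24 h and at 0.82, 1.67, 0.48 and 0.15 at 48 h. These groups do not overlap, but their nearest values were 0.11 and 0.15. The share of all features that parted this way was not counted. FOXQ1 was also picked for its small F-test p, so the parting is no separate support. At 72 h it was listed at -0.11 and 0.01. The log2 ratio was -0.63 (SE 0.23, adjusted p = 0.798) at 24 h and 0.78 (SE 0.28, adjusted p = 0.417) at 48 h. The difference of 48 h from 24 h was 1.41 (SE 0.36, adjusted p = 0.999). Turned by the dye labels, the log2 ratio was 0.09 at 24 h and 0.29 at 48 h, the groups overlapped, and the difference was 0.20 (SE 0.51). The mean as deposited was 0.03.

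**Figure D3:**
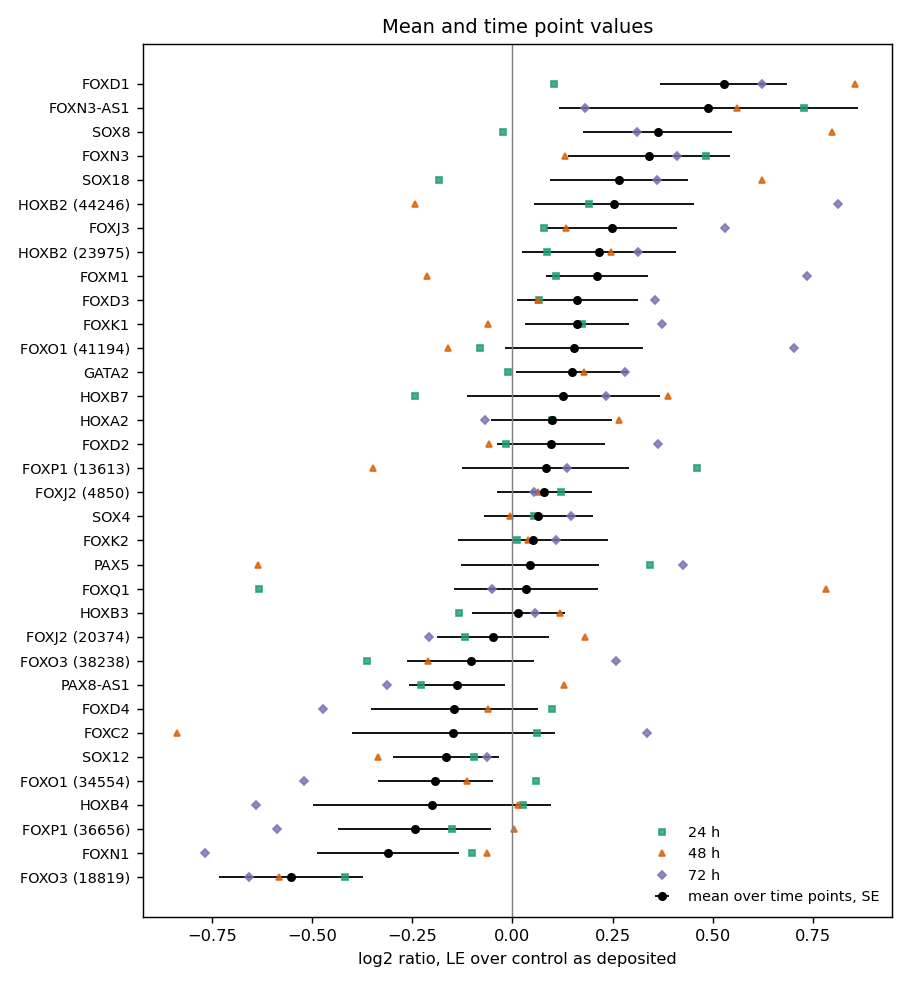
Mean log2 ratio over the 3 time points (black, bars are 1 SE) and the values at 24, 48 and 72 h (coloured) for the 34 features, sorted by the mean. As deposited the means run from -0.55 at FOXO3 feature 18819 to 0.53 at FOXD1; turned by the dye labels they run from -0.74 (HOXB4) to 0.63 (FOXD4), which is not drawn.

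The remaining FOX features were closer to 0 or had wide errors. FOXM1, which drives genes of mitosis, was listed at -0.26, -0.02, -0.45 and -0.11 at 48 h and at 0.87 and 0.60 at 72 h. Its 72 h ratio of 0.74 (SE 0.28, adjusted p = 0.426) was the only member value at 72 h with an unadjusted p under 0.05, and its mean was 0.21 (SE 0.13). Turned by the dye labels its 72 h ratio was -0.13. The means were 0.49 for FOXN3-AS1, where the SE was 0.37, and 0.34 for FOXN3 (SE 0.20), a repressor linked to the cell cycle checkpoint. They were 0.25 for FOXJ3, 0.16 for FOXD3, a neural crest factor, 0.10 for FOXD2, and 0.16 and 0.05 for FOXK1 and FOXK2, which restrain autophagy genes. Means below 0 were -0.31 for FOXN1, the thymic epithelial factor, -0.15 for FOXC2, a factor of vessels and mesenchyme, and -0.14 for FOXD4, whose near-identical FOXD4-like copies a probe may not tell apart.

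The 4 FOXO features did not move as a group. The FOXO1 features had means of -0.19 (feature 34554) and 0.15 (feature 41194), and at 72 h they were listed at -0.55 and -0.49 for the first and at 0.42 and 0.99 for the second. The FOXJ2 features had means of -0.05 (feature 20374) and 0.08 (feature 4850). Those of FOXP1, a factor of lymphocytes, lung and heart, had means of 0.08 (feature 13613) and -0.24 (feature 36656).

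**Figure D4:**
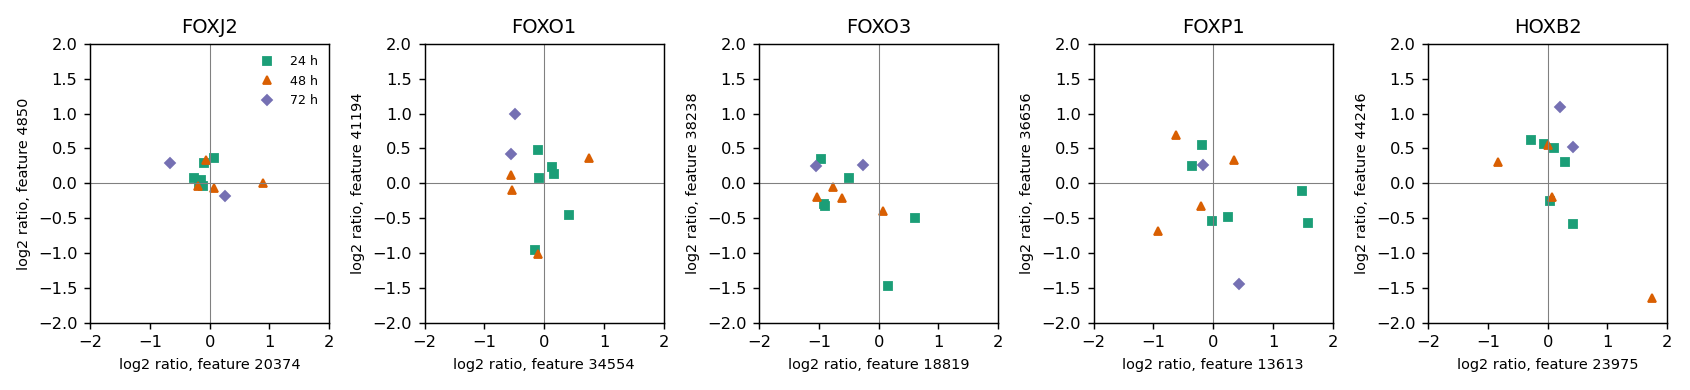
Log2 ratios of the 2 features of FOXJ2, FOXO1, FOXO3, FOXP1 and HOXB2 against each other; each point is 1 of 12 arrays, coloured by time. In none of the 5 panels do the points follow a rising line; r runs from -0.69 to -0.13.

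Of the 34 features, 10 formed such pairs, and in none of the 5 genes did the 2 features rise and fall together. The correlation over the 12 arrays was -0.31 for FOXJ2, -0.13 for FOXO1, -0.57 for FOXO3, -0.27 for FOXP1 and -0.69 for HOXB2. The 2 features had the same sign on 4 to 6 of the 12 arrays. These points share arrays, and the numbers are given as a description. The pattern over arrays at 1 feature of a gene was thus not matched by its other feature. The means shared a sign for HOXB2 (0.22 and 0.25) and FOXO3 (-0.55 and -0.10), and differed in sign for FOXJ2, FOXO1 and FOXP1.

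Among the SOX genes, SOX8, which takes part in Sertoli and glial cell development, had the highest mean as deposited. Turned by the dye labels its mean was -0.14 and its 48 h ratio -0.47, and SOX4 had the highest mean of the SOX genes at 0.17. It was listed at 0.60, -0.03, 0.44, -0.55, -1.05 and 0.46 at 24 h, at 1.64, 0.51, 0.14 and 0.89 at 48 h and at 0.08 and 0.54 at 72 h. All 6 later arrays lay above 0, and the 24 h arrays were split. Its 48 h ratio was 0.80 (SE 0.29, adjusted p = 0.424) and its mean was 0.36 (SE 0.19, adjusted p = 0.369). By dye, the means were 0.22 for LE in Cy5 and 0.51 for LE in Cy3.

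SOX18, a factor of blood and lymph vessels, was listed at -0.21, 0.16, 0.01, -0.89, -0.81 and 0.63 at 24 h. It was listed at -0.03, 0.45, 1.27 and 0.80 at 48 h and at 0.46 and 0.26 at 72 h. The groups overlap. Its 48 h ratio was 0.62 (SE 0.27, adjusted p = 0.501), and its mean was 0.27. By dye it averaged 0.30 with LE in Cy5 and 0.23 with LE in Cy3, and turned by the dye labels its 48 h ratio was 0.23.

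SOX12 and SOX4, which belong to the same SOX subgroup and act in neural and mesenchymal progenitors, were near 0. SOX12 was listed at 0.29, 0.01, -0.35, 0.15, -0.18 and -0.50 at 24 h, at -0.08, -0.37, -0.52 and -0.37 at 48 h and at 0.34 and -0.47 at 72 h. It lay below 0 on all 4 arrays of 48 h only. Its mean was -0.17 (SE 0.13) and that of SOX4 was 0.06 (SE 0.14).

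The HOX features had no unadjusted p under 0.05 at any time point. HOXB2, a hindbrain patterning gene, had means of 0.25 (feature 44246) and 0.22 (feature 23975). Feature 44246 was listed at -0.25, 0.30, 0.56, -0.59, 0.51 and 0.62 at 24 h, at -1.64, 0.55, -0.19 and 0.30 at 48 h and at 0.52 and 1.10 at 72 h. On the array with -1.64, 48 h replicate 1, the other HOXB2 feature was listed at 1.74.

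HOXB7, a trunk HOX gene, was listed at 0.46, -1.22, -0.19, 0.51, -1.22 and 0.21 at 24 h, at 1.87, 0.08, 0.30 and -0.69 at 48 h and at 0.59 and -0.13 at 72 h. Every time point held values on both sides of 0, and the mean was 0.13 (SE 0.24). HOXA2, which patterns the hindbrain and the branchial arches, was listed at -0.09, 0.88, 0.27, -0.36, 0.26 and -0.36 at 24 h, at 0.15, 0.76, 0.37 and -0.22 at 48 h and at -0.23 and 0.09 at 72 h. Its mean was 0.10 (SE 0.15). The mean of HOXB3 was 0.01 (SE 0.12) and that of HOXB4 was -0.20 (SE 0.30).

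GATA2, the regulator of blood stem cells and the only GATA gene with a value, was listed at -0.58, 0.38, 0.10, -0.25, 0.10 and 0.17 at 24 h. It was listed at 0.11, 0.62, 0.31 and -0.33 at 48 h and at 0.06 and 0.50 at 72 h. Its mean was 0.15 (SE 0.14, adjusted p = 0.655). All 6 arrays with LE in Cy5 lay above 0, with a mean of 0.39, and 3 of the 6 with LE in Cy3 did, with a mean of -0.09.

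PAX5, the B cell identity factor, was listed at 0.53, 0.77, 0.57, 0.24, -0.08 and 0.01 at 24 h, at -1.62, -0.01, -0.15 and -0.76 at 48 h and at -0.06 and 0.92 at 72 h. The 48 h arrays all lay below 0, and 5 of 6 at 24 h lay above. The 48 h ratio was -0.64 (SE 0.27, adjusted p = 0.493). By dye PAX5 averaged 0.42 with LE in Cy5 and -0.33 with LE in Cy3, and its mean over time was 0.04. Turned by the dye labels its 48 h ratio was 0.55, of the opposite sign. The antisense RNA PAX8-AS1 was listed at -0.21, 0.09, -0.30, -0.41, -0.61 and 0.06 at 24 h, at 0.18, 0.13, 0.14 and 0.05 at 48 h and at -0.22 and -0.40 at 72 h. Its mean was -0.14 (SE 0.12).

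Differences between time points were tested as well. None of the 34 features was called for 48 h against 24 h, 72 h against 24 h or 72 h against 48 h, where 0% of all features were called. At an unadjusted p under 0.05 there were 5, 0 and 2 members, against 4.82%, 3.9% and 3.9% of all features. For 48 h against 24 h the 5 were FOXQ1 (1.41), PAX5 (-0.98), SOX8 (0.82), SOX18 (0.81) and FOXD1 (0.75). For 72 h against 48 h they were PAX5 (1.06) and FOXM1 (0.95). Each of these had an adjusted p of 0.999. Turned by the dye labels, the same differences were 0.20, 0.47, -0.28, 0.26 and 0.30 for 48 h against 24 h, and -0.06 and -0.11 for 72 h against 48 h.

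For several members the sign went with the dye and not with the time. FOXD4 was above 0 on all 6 arrays with LE in Cy5 (mean 0.48) and below 0 on all 6 with LE in Cy3 (mean -0.77), and it was the only member whose sign followed the dye on every array (2.94% of members and 2% of all features). HOXB4, which supports blood stem cell renewal, was below 0 on all 6 arrays with LE in Cy5 (mean -0.95) and above 0 on 5 of 6 with LE in Cy3 (mean 0.55). The corresponding means were -0.27 and 0.52 for HOXB7, 0.37 and -0.18 for HOXA2 and -0.74 and 0.25 for FOXP1 feature 36656. With every ratio turned by the dye labels, FOXD4 had a mean of 0.63 (adjusted p = 0.0376) and HOXB4 of -0.74 (adjusted p = 0.0481), both short of the threshold of 0.01, against -0.14 and -0.20 as deposited. A dye effect and a wrongly oriented column cannot be told apart here.

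**Figure D5:**
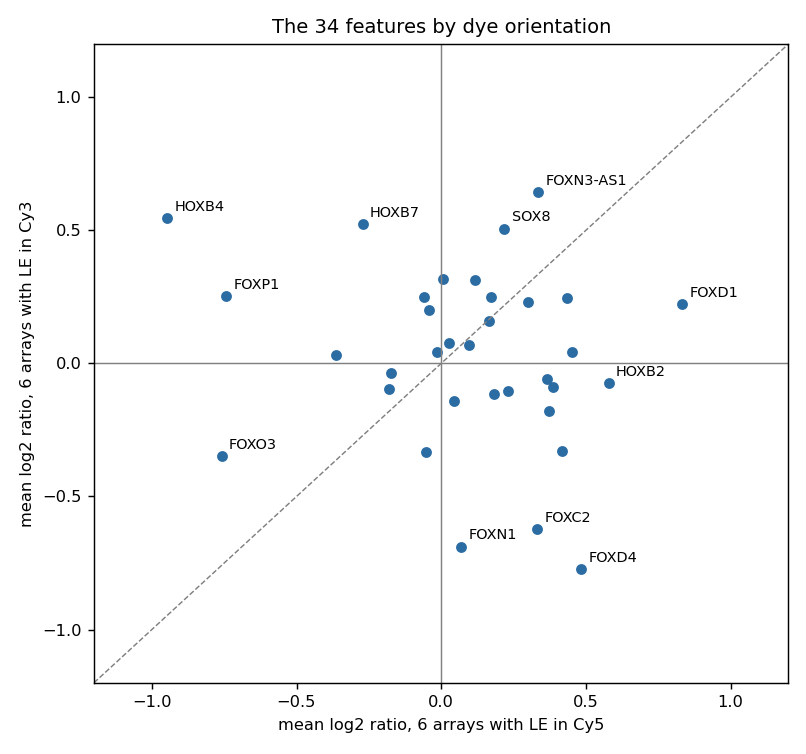
Mean log2 ratio of each of the 34 features over the 6 arrays with LE in Cy5 (horizontal) and the 6 with LE in Cy3 (vertical); the dashed line marks equal values. FOXD1 and FOXO3 keep their sign on both axes, while HOXB4 (-0.95 and 0.55) and FOXD4 (0.48 and -0.77) do not.

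Partner genes of the developmental factors, taken from lists chosen with earlier results of these data known, had no called feature in any comparison with control. At an unadjusted p under 0.05 in the mean, the background over all features was 15.9%, 7.45% above 0 and 8.48% below. Of the lists, 4 lay below that share: the HOX cofactors with 1 of 8 features (12.5%), the MLL/COMPASS genes with 2 of 18 (11.1%), the GATA cofactors with 3 of 28 (10.7%) and the FOXM1 targets with 3 of 31 (9.7%). The other 3 lay above it: the Polycomb genes with 7 of 28 (25%), 3 above 0 and 4 below, the FOXO regulators and targets with 13 of 57 (22.8%), 10 above and 3 below, and the other pancreas factors with 2 of 8 (25%), 1 above and 1 below. Copies of 1 gene are counted separately in these shares. The median mean of these lists lay between -0.06 and 0.21, against 0.03 over all features.

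Partner genes with several features were mixed: in some the features of 1 name shared a sign, and in others they did not. All features of KMT2C lay below 0, and both features of HES1, RBPJ, YWHAB, YWHAE, PLK1, PKNOX1 and PHC3 lay above 0. The 2 features of SUZ12, RBBP4, PHF19, PCGF3, PHC2, GATAD1, GATAD2A and CKS1B lay on opposite sides of 0. All these means are as deposited, and values turned by the dye labels are not given for partner genes. PHC3, a Polycomb subunit, had means of 0.62 (SE 0.17, adjusted p = 0.0775) and 0.17 at its 2 features. KMT2A, the MLL methyltransferase, had 4 features, at -0.60, -0.56, 0.06 and 0.23. BIRC5, an inhibitor of cell death and a FOXM1 target, had 10 features, 7 above 0 and 3 below, from -0.90 to 0.38. Among the FOXO targets, CDKN1B, a brake on the cell cycle, had 6 features above 0 and 4 below, from -0.56 to 0.53, and CDKN1A had 8 above and 2 below, from -0.70 to 0.43. The 14-3-3 gene YWHAZ, whose protein holds FOXO in the cytoplasm, had 2 above and 4 below, from -0.57 to 0.53.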

How the data were processed

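The deposited table holds log2 ratios made by the authors, 1 column for each of 12 arrays. By their methods, spots were imaged with GenePix and filtered on image quality and on opposite change at dye swap. Ratios were normalised within arrays by lowess and between arrays by quantiles in limma. A spot failing on any array is blank. Columns with LE in Cy5 are written with 9 decimals and those with LE in Cy3 with 6, so the columns were not handled alike. No intensities were used here, and signal over background is unknown. The members and the gene lists were chosen with earlier results of these data known.

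Features were named from the platform table. Ratios were used as deposited in limma 3.58.1 (R 4.3.3), with time points as groups (6, 4 and 2 arrays), 9 residual and 6.2 prior degrees of freedom, and Benjamini-Hochberg adjustment over 17134 features. A p-value measures the spread between arrays, some of which share a culture, and the number of arrays limits the precision. Named were all members with a value. Values on every array were given for the 3 members of each family with the smallest F-test p, and for genes whose features differed with 1 past 0.05. FOXM1, FOXD4, HOXB4, HOXB7, FOXO1 and FOXP1 details and single partner genes were picked after their values were seen. The fits were tested on simulated data. Replicate numbers were checked as pairs: same-numbered arrays correlated at 0.058 to 0.489 and not all above 0.1, and the main fit used no block. Same-numbered arrays also share the dye orientation. Differently numbered arrays of the same orientation reached 0.479, so the check cannot show or exclude pairing. Alternatives are given in the closing section. The file held no column of the authors' own comparisons.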

Additional observations from a re-analysis of the deposited data

Results flagged for a closer look

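A value set apart from the rest of its group was found in 4 of 68 groups of 6 or 4 arrays, and chance alone flags about 1 in 20 groups. FOXN3 (feature 13303) was set apart at both time points on replicate 1: at 24 h it was listed at 2.12 while the other arrays lay between -0.34 and 0.53, and at 48 h at -0.59 while the others lay between 0.33 and 0.40. FOXN3-AS1 (feature 27084) was listed at 2.66 on 24 h replicate 2, with the others between -0.08 and 0.71. FOXJ2 (feature 4850) was listed at 0.34 on 48 h replicate 4, with the others between -0.06 and 0.01.

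For 3 features every array of 48 h lay on 1 side of 0 and both arrays of 72 h on the other. The share of all features that parted this way was not counted, so the 3 cannot be set against a background. Over all features 14% kept 1 sign at 48 h and 54.1% at 72 h. The difference of 72 h from 48 h was 0.95 for FOXM1 (below 0 at 48 h, above 0 at 72 h), 0.47 for FOXO3 feature 38238 (-0.21 and 0.26) and -0.44 for PAX8-AS1 (0.13 and -0.31). In the fit over all features the adjusted p of each of these differences was 0.999. With signs turned by the dye labels these differences were -0.11 for FOXM1, -0.01 for FOXO3 feature 38238 and -0.10 for PAX8-AS1.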

How the results depend on the processing

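No developmental factor was called at an adjusted p of 0.01 in any comparison under any of the alternatives run, which were turned signs, a dye term, a replicate block, a random replicate block with a dye term, each time point alone, centred, scaled or quantile-normalised arrays, a robust variance, gene means and each array left out in turn. With the replicate block 0 members were called in the mean, and the range without 1 array was 0 to 0 throughout. The smallest adjusted p in the mean was 0.0343 for FOXD1, with a random replicate block and a dye term. Over all features the count in the mean was 9, and it was 86 with the replicate block, 70 with the random block and dye term, 15 with the dye term, 2 with turned signs, 1 with scaled arrays, 2 with the robust variance and 0 to 5 without 1 array; it was 213 at an adjusted p of 0.05. The mean of FOXO3 feature 18819 had an unadjusted p of 0.0813 without 72 h replicate 2, and that of FOXD1 0.0494. Of 2822 single values recomputed, 39 moved by more than the spread between arrays, 23 of them with turned signs and 8 without each of the 72 h arrays. A smaller shift counted as unmoved even where the sign changed, as for the SOX8 mean (0.36 as deposited, -0.14 turned). The count therefore does not show that signs were stable. With 2 arrays at 72 h, leaving out 1 leaves a lone array, assumed to vary like the others.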
